A study of Homo sapiens with 4 samples.

Results

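The mRNAs of the cytosolic ribosomal proteins were read in Huh7 and HepG2 cells, 2 established liver cancer cell lines. Each was transfected with a negative control siRNA (NC-siRNA) or with an siRNA against COP1 (COP1-siRNA), an E3 ubiquitin ligase. The members were taken by symbol: RPL or RPS followed by a number and its usual suffix, or RPLP0, RPLP1, RPLP2, RPSA or RPL36AL, with at least 1 TPM, the transcript level scaled to a fixed total in each library, in any library. The gene name field of the tables was blank, so symbols were looked up by NCBI Gene number, and 44698 of 46427 numbers (96.3%) had a symbol. The pattern took 85 genes, of which 83 reached 1 TPM. RPL10L and RPL3L, testis and muscle forms in textbook accounts, did not pass, the former at 0.0692 and 0.0828 TPM in Huh7 with NC-siRNA and COP1-siRNA and at 0 in both HepG2 libraries, the latter at 0.11 TPM in HepG2 with COP1-siRNA and 0 elsewhere. The 83 members comprised 32 genes of the small subunit and 51 of the large subunit, and 6 of them (RPL22L1, RPL26L1, RPL36AL, RPL39L, RPL7L1 and RPS27L) are paralogs of another member, here set apart from the 77 canonical genes.

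Cells of wild type genotype in all 4 groups were transfected with 20 nM of either siRNA for 5 h and harvested 48 h later, and poly(A) mRNA was sequenced from stranded libraries, all under 1 batch label. There was 1 library for each of the 4 groups, so no value had a replicate, no test was run, and every difference below compares libraries, not conditions. Differences were read on the log2((TPM + 1)/(TPM + 1)) scale over genes with at least 1 TPM in either library compared, and the share of all such genes past the same threshold stands beside the counts. COP1 itself read 19.7 TPM in the Huh7 control and 6.18 TPM after its siRNA, and 26.9 and 16.1 TPM in HepG2, so 31.4% and 59.9% of the control level was left. All 8 hepatocyte markers were detected in every library, with summed levels from 2665 TPM to 17849 TPM, and the 4 markers of other cell types summed to between 17.9 and 63.8 TPM, most of it CD68, with PTPRC, the marker of leukocytes, at 0 in all 4. No read counts were given and the depth is unknown. The highest ratio of coverage to FPKM among the members, which moves with depth, was 6.59 and 7.47 in Huh7 and 5.75 and 7.31 in HepG2 with NC-siRNA and COP1-siRNA.

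Ribosomal proteins, together with the ribosomal RNAs, build the small subunit, which reads the mRNA, and the large subunit, which joins the amino acids. Each ribosome takes a single copy of most of them, and the mRNAs of nearly all carry a 5′ terminal oligopyrimidine (TOP) tract, an unbroken run of C and T bases at the start of transcription through which mTOR signaling sets their translation. Several have duties outside the ribosome, among them RPL5 and RPL11, which bind MDM2 and thereby bear on p53, itself a known substrate of COP1.

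The start sites of the members that set the range of the results are shown because the TOP tract is the sequence feature that nearly all of these genes share. RefSeq promoters (GRCh38.p14) were matched by symbol for 67 of the 83 members, and the start given there was also an end of the gene in the deposited tables for 51 of those 67. Each line gives 40 bases on the coding strand, 5′ to 3′, with the annotated start at base 16, and capitals mark the longest run of pyrimidines with at least 1 base in the window from 10 bases before to 15 bases after the start.
RPL39 (chrX:119791606-119791645, minus strand): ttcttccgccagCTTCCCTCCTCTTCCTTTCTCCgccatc
RPL36A (chrX:101390996-101391035, plus strand): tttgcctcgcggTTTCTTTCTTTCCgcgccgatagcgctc
RPS4X (chrX:72277224-72277263, minus strand): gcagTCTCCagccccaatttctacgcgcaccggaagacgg
RPL41 (chr12:56116618-56116657, plus strand): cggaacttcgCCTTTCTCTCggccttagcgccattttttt
RPLP0 (chr12:120201087-120201126, minus strand): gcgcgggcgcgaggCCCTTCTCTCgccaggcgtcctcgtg
RPS12 (chr6:132814554-132814593, plus strand): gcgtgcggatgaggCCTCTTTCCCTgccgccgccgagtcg
RPL24 (chr3:101686694-101686733, minus strand): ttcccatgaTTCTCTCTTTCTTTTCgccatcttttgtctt
RPL22 (chr1:6199571-6199610, minus strand): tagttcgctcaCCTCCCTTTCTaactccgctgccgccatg
RPL22L1 (chr3:170870171-170870210, minus strand): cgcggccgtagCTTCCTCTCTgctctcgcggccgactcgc
RPL36AL (chr14:49620602-49620641, minus strand): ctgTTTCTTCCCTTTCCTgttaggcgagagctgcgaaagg
RPL26 (chr17:8383169-8383208, minus strand): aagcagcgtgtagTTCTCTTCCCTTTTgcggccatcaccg
RPL26L1 (chr5:172958714-172958753, plus strand): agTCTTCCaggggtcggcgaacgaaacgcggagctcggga
RPL7L1 (chr6:42879601-42879640, plus strand): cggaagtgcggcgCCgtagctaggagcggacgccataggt
RPS27 (chr1:153990747-153990786, plus strand): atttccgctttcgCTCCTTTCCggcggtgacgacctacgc
RPS27L (chr15:63157453-63157492, minus strand): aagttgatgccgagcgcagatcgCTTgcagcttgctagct

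A run of at least 8 pyrimidines lay in that window, wholly or in part, in 53 of 67 members (79.1%) and in 16.6% of 27305 RefSeq promoters, and the median longest run was 11 bases in the members and 5 bases in all promoters. RPL39 had a run of 22 bases. Among the paralogs, RPL22L1 and RPL36AL had runs of 10 and 15 bases, whereas RPL26L1, RPL7L1 and RPS27L had runs of 6, 2 and 3 bases. Of these paralogs, RPL26L1 alone had a start that was not an end of its gene in the deposited tables. In the whole promoter, from 250 bases before to 50 after the start and on both strands, the letters CCGGAAG, the core bound by ETS factors, were present in 34.3% of the members and 10.7% of all promoters. CTTTCC stood in 46.3% and 26.3%, and CTCTTTCC, which holds CTTTCC, in 13.4% and 3.09%. Promoters of RPS2, RPL5, RPL37, RPL39L and 12 further members were not matched.

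Ribosomal protein mRNAs took 11.1% of all TPM in Huh7 with NC-siRNA and 11.2% with COP1-siRNA, and 20.6% in HepG2 with either siRNA. The summed levels were 111206 and 111973 TPM in Huh7 and 206154 and 205696 TPM in HepG2. The share was thus nearly equal between the siRNAs within a line, and the gap lay between the lines. The small subunit held 43.3% and 43.4% of the sum in Huh7 and 46.3% of it in both HepG2 libraries. In Huh7, 35 of the 100 genes with the highest TPM were ribosomal protein genes with either siRNA, against 55 in HepG2, and none of the 10 highest in Huh7 was a member, against 3 in HepG2. At least 1000 TPM was reached by 50 members in each Huh7 library and by 60 and 62 in HepG2.

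**Figure D1:**
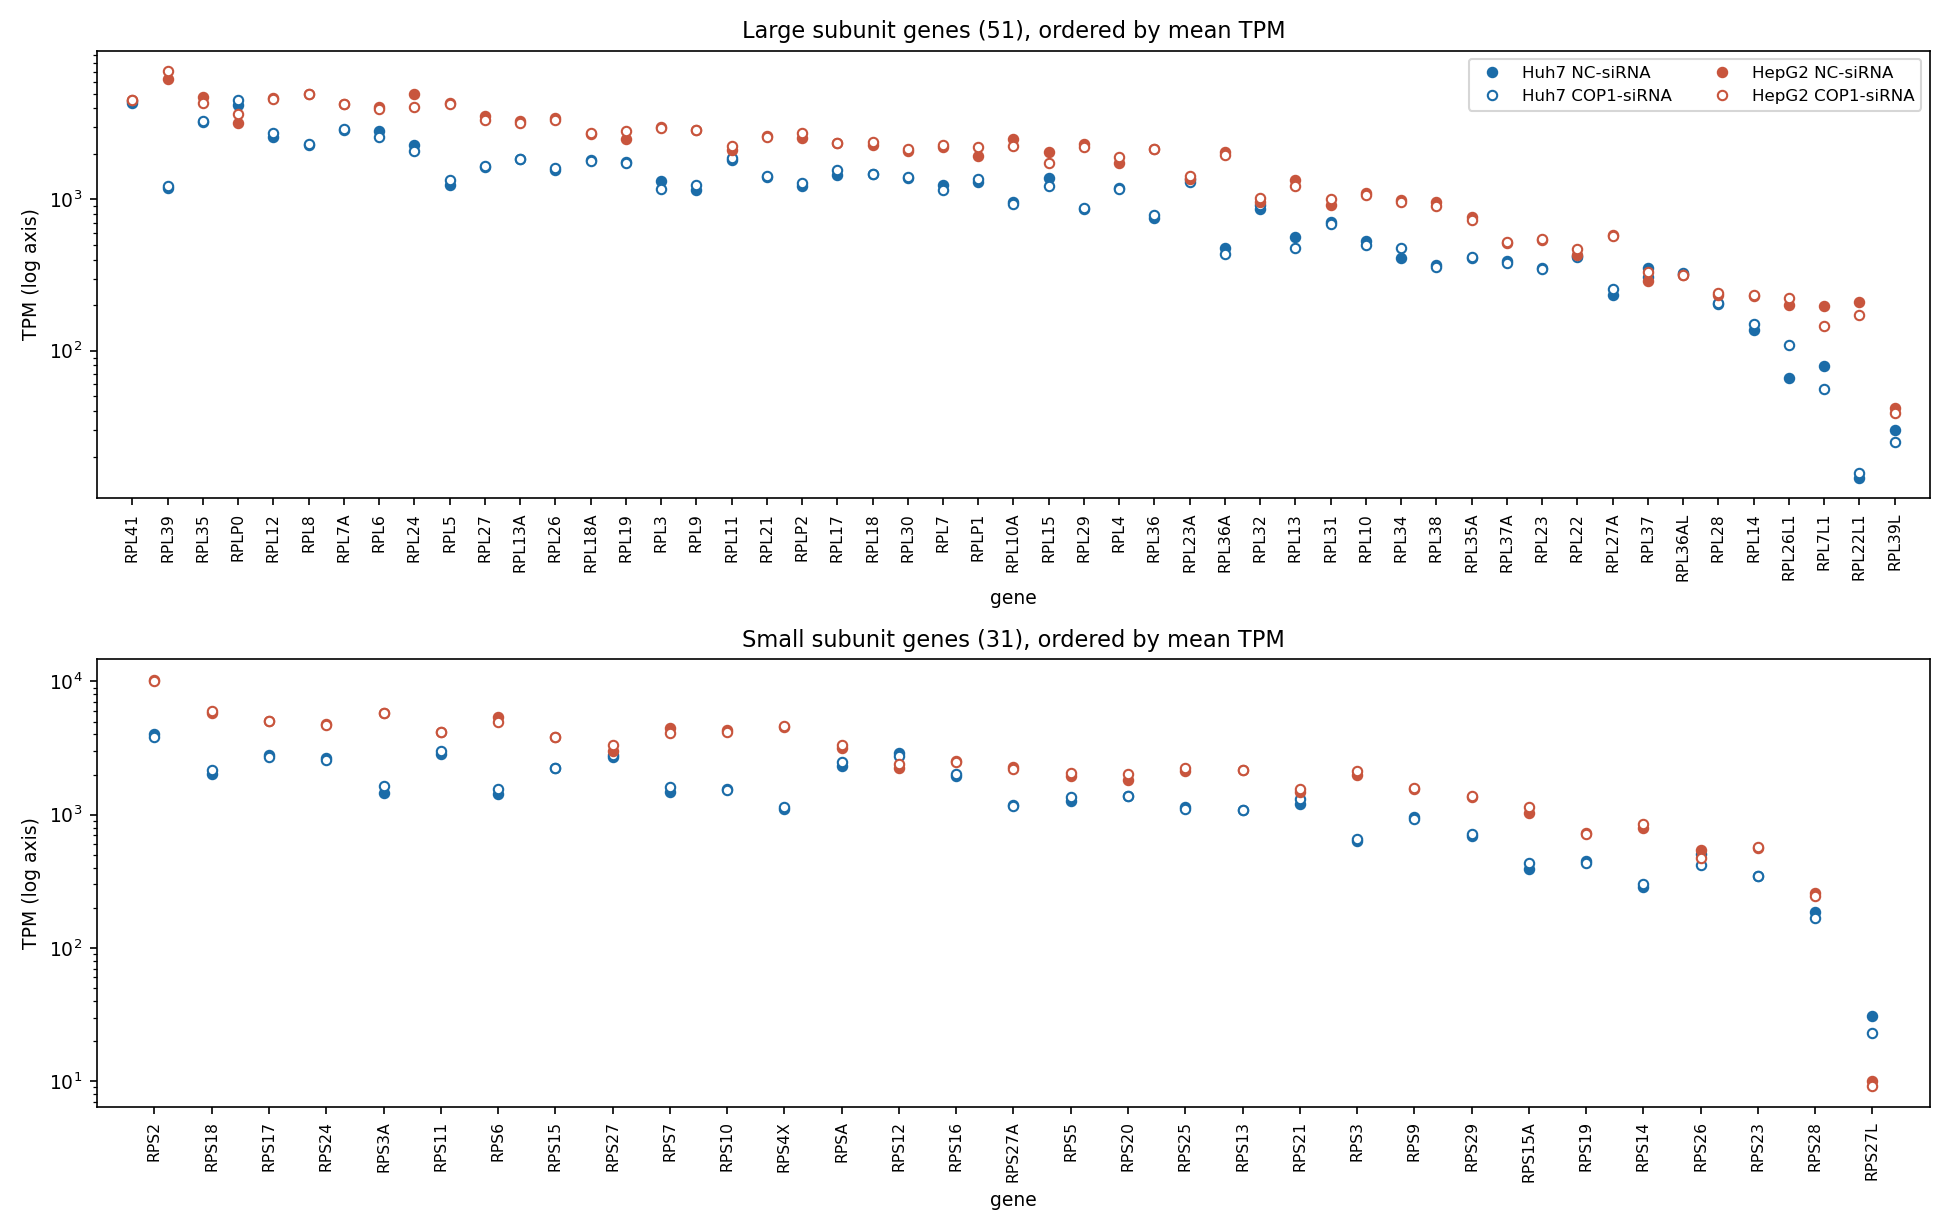
TPM (log axis) of the 51 large subunit genes (top) and 31 of the small subunit genes (bottom), ordered by mean TPM, with Huh7 in blue and HepG2 in red, filled circles for NC-siRNA and open circles for COP1-siRNA; each point is 1 library. Filled and open circles of a line nearly coincide for most genes, red circles lie above blue ones for most, and RPS2 reaches 10313 TPM while RPS27L lies between 9.12 and 31.0 TPM.

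Although the assembled ribosome holds most of these proteins in equal number, their mRNAs were far from equal. Among the canonical genes, TPM spanned 31.5-fold and 30.2-fold in the Huh7 libraries and 45.1-fold and 43.1-fold in the HepG2 libraries. The medians were 1268 and 1303 TPM in Huh7 and 2272 and 2265 TPM in HepG2. RPS2, a small subunit protein near the mRNA entry channel, had the highest mean level, at 4043 and 3855 TPM in Huh7 and at 10313 and 10124 TPM in HepG2. RPL41, which encodes a very short basic peptide, came next at 4333, 4502, 4560 and 4543 TPM in Huh7 with NC-siRNA and COP1-siRNA and in HepG2 in the same order, and so was nearly even over all 4 libraries. RPS18 (2015, 2153, 5810 and 5960 TPM) and RPL39 (1181, 1233, 6275 and 7046 TPM) were also among the 5 highest, and both were higher in each HepG2 library than in either Huh7 library. At the low end of the canonical genes, RPL14, a large subunit protein, had 138, 150, 229 and 235 TPM.

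Of the 6 paralogs, 5 stood below every canonical gene in mean level, whereas RPL36AL, at 321, 325, 316 and 316 TPM, stood just above RPL28, RPS28 and RPL14. The lowest of all was RPS27L at 31.0, 23, 10.1 and 9.12 TPM, and its lowest coverage, 25.1 in HepG2 with NC-siRNA, was the thinnest of any member in any library. Ribosomal protein genes have many processed pseudogenes with near identical sequence, and reads that fit both may be divided between them. The 1458 pseudogene symbols in the tables summed to 5014 and 4821 TPM in Huh7 and to 7199 and 7113 TPM in HepG2, or 4.51%, 4.31%, 3.49% and 3.46% of the members' sum. RPS2P5 alone was listed at 575, 523, 1689 and 1535 TPM and RPL41P1 at 512, 511, 481 and 507 TPM. RPS28P7, at 467, 477, 744 and 698 TPM, stood above RPS28 itself, at 186, 167, 257 and 245 TPM. RPL9P8 was at 393 and 408 TPM in Huh7 and at 85.5 and 104 TPM in HepG2, whereas RPL9 was lower in Huh7. How much of these belongs to RPS2, RPL41, RPS28 and RPL9 was not tested. The low rank of RPS28 and the size of the line difference of RPL9, at 1151, 1237, 2865 and 2895 TPM, depend on it.

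With COP1-siRNA, hardly any ribosomal protein mRNA differed from NC-siRNA in either line. The median over the 83 members was 0.01 on the log2 scale in Huh7 and 0.003 in HepG2, beside -0.001 and -0.01 over all genes read, and the HepG2 median changed sign when FPKM or coverage was used (-0.02 and -0.002). The SD across members was 0.14 in Huh7 and 0.11 in HepG2, whereas over the 1471 and 1495 other genes with a mean of at least 100 TPM it was 0.22 and 0.18. In Huh7, 44 of 83 members were above 0, where 49.9% of all genes were, and in HepG2 43 of 83, where 48.3% of all genes were. These counts moved with the measure, to between 43 (coverage) and 66 (FPKM) in Huh7 and between 32 (FPKM) and 52 (median of ratios or upper quartile) in HepG2. The median of all genes moved too, to 0.05 in Huh7 and -0.02 in HepG2 by FPKM. Above the median of all genes in the same measure were 45 to 49 members in Huh7 and 44 to 46 in HepG2.

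At least 1.5-fold higher with COP1-siRNA in Huh7 was 1 member (2.80% of all genes), and at least 1.5-fold lower were 0 members (2.68% of all genes). In HepG2, 0 members were 1.5-fold higher (2.56% of all genes) and 0 were 1.5-fold lower (1.87% of all genes). The 77 canonical genes spanned -0.26 to 0.20 on the log2 scale in Huh7 and -0.28 to 0.21 in HepG2. The small and large subunit genes had medians of -0.005 and 0.02 in Huh7 and 0.01 and -0.002 in HepG2.

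The largest values belonged to paralogs. RPL26L1, a near copy of RPL26, was at 65.7 and 109 TPM in the control and COP1-siRNA libraries of Huh7 (log2 0.73), and at 199 and 225 TPM in HepG2 (log2 0.17). It was the single member past 1.5-fold, and its Huh7 levels stayed below both of its HepG2 levels. RPL26 itself was at 1561 and 1620 TPM in Huh7 and 3433 and 3348 TPM in HepG2 (log2 0.05 and -0.04). RPL7L1, a nucleolar relative of RPL7, was at 79.1 and 56.0 TPM in Huh7 (log2 -0.49) and at 197 and 146 TPM in HepG2 (log2 -0.43). It was the single member lower by at least 0.32 on the log2 scale in both lines, as were 340 of the 11970 genes read in both. RPL7 was at 1244 and 1161 TPM in Huh7 and 2206 and 2275 TPM in HepG2 (log2 -0.10 and 0.04). RPS27L, a p53-inducible form of RPS27, was at 31.0 and 23 TPM in Huh7 (log2 -0.41) and at 10.1 and 9.12 TPM in HepG2 (log2 -0.13). RPL22L1 read 0.09 in Huh7 and -0.29 in HepG2, RPL39L -0.24 and -0.10, and RPL36AL 0.02 and -0.002. Paralogs thus held the outer values in Huh7 on both sides.

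**Figure D2:**
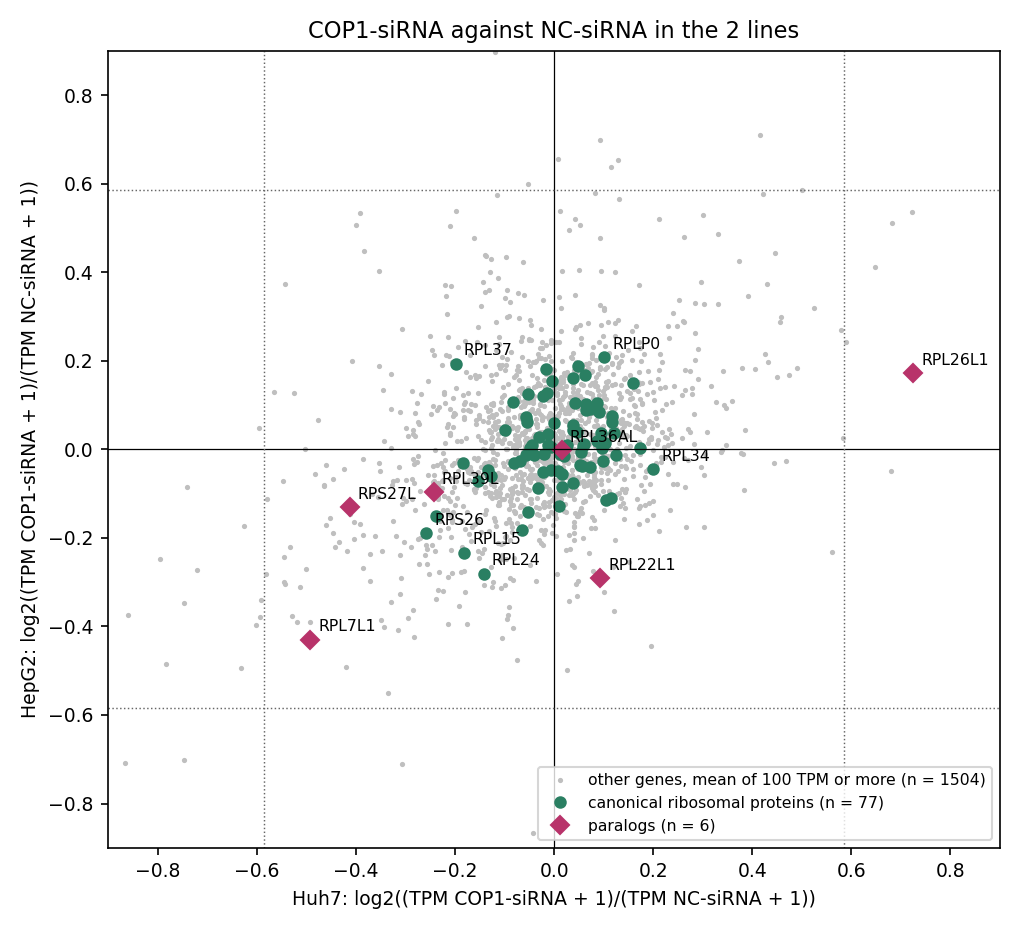
Log2 difference between COP1-siRNA and NC-siRNA in Huh7 (x axis) and in HepG2 (y axis), on the log2(TPM + 1) scale, for 77 canonical ribosomal protein genes (green circles), 6 paralogs (magenta diamonds) and 1504 other genes with a mean of at least 100 TPM (grey, 20 of them outside the axes); dotted lines mark 1.5-fold. The green circles form a tight group around 0 and RPL26L1 at 0.73 in Huh7 is the one member beyond a dotted line.

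Members at least 1.1-fold higher with COP1-siRNA in both lines were RPS15A and RPL26L1, and at least 1.1-fold lower in both were RPL24, RPL15, RPL13, RPS26 and RPL7L1. Among 11970 genes read in both lines, 1011 were higher and 1368 lower in both by the same measure. RPL24, a large subunit protein at the face toward the small subunit, was at 2304 and 2087 TPM in Huh7 and at 4957 and 4081 TPM in HepG2 (log2 -0.14 and -0.28). RPL15 was at 1394 and 1229 TPM in Huh7 and 2058 and 1751 TPM in HepG2 (log2 -0.18 and -0.23). RPS26, which lies at the mRNA exit channel, was at 505 and 422 TPM in Huh7 and 541 and 474 TPM in HepG2 (log2 -0.26 and -0.19). RPL13 was at 563 and 477 TPM in Huh7 and 1354 and 1219 TPM in HepG2 (log2 -0.24 and -0.15). RPS15A, on the higher side, was at 390 and 436 TPM in Huh7 and 1026 and 1138 TPM in HepG2 (log2 0.16 and 0.15). These steps are of a size that could not be judged without replicates. Across the 83 members the differences of the 2 lines had a Pearson r of 0.474 and a Spearman rho of 0.331, over the 77 canonical genes 0.347 and 0.272, and over the 11970 genes 0.294 and 0.291. Of the members, 48 of 83 (57.8%) had the same sign in both lines, beside 60.2% of the 11970 genes. Genes of 1 library share its preparation and depth, so these are descriptions.

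The proteins of the stalk, which recruits the translation factors, showed small differences. RPLP0, often used as a reference gene in PCR, was at 4213 and 4517 TPM in Huh7 and at 3193 and 3687 TPM in HepG2 (log2 0.10 and 0.21). RPLP1 was at 1313 and 1358 TPM and at 1940 and 2210 TPM (log2 0.05 and 0.19), and RPLP2 was at 1220 and 1275 TPM and at 2539 and 2727 TPM (log2 0.06 and 0.10). All 3 were slightly higher with COP1-siRNA in both lines. RPSA, the small subunit protein also known as a laminin receptor, was at 2298 and 2492 TPM in Huh7 and 3174 and 3313 TPM in HepG2 (log2 0.12 and 0.06).

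RPL5 and RPL11, whose proteins bind MDM2, were also close to their controls. RPL5 was at 1246 and 1333 TPM in Huh7 and 4320 and 4243 TPM in HepG2 (log2 0.10 and -0.03). RPL11 was at 1830 and 1885 TPM in Huh7 and 2106 and 2265 TPM in HepG2. RPS6, the substrate of S6 kinase, was at 1435 and 1553 TPM in Huh7 and 5382 and 4987 TPM in HepG2 (log2 0.11 and -0.11).

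RPL37 differed in opposite directions, from 351 to 306 TPM in Huh7 (log2 -0.20) and from 291 to 332 TPM in HepG2 (log2 0.19). On the scaled coverage of the same tables its differences were -0.05 and 0.05 by the same contrasts, so the size differed between the 2 measures. RPL34 likewise read 0.20 by TPM and 0.07 by coverage in Huh7.

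Genes that act with the ribosomal proteins were read as further lists. FAU, which encodes a ribosomal protein fused to a ubiquitin-like protein, was at 604 and 640 TPM in Huh7 and at 1054 and 1213 TPM in HepG2 (log2 0.08 and 0.20). RACK1, the scaffold bound to the small subunit, was at 2251 and 2290 TPM in Huh7 and 3704 and 4090 TPM in HepG2 (log2 0.03 and 0.14). The 18 elongation factors and other genes with a TOP tract had medians of 0.03 in Huh7 and 0.08 in HepG2, with 0 past 1.5-fold in either line, beside the shares of all genes given above. The 27 ribosome biogenesis genes had a median of 0.01 in each line, and ABT1 alone was past 1.5-fold (lower, as were 2.68% and 1.87% of all genes), from 27.5 to 12.5 TPM in Huh7 (log2 -1.08) and from 71.5 to 36.9 TPM in HepG2 (log2 -0.93). The 9 hosts of small nucleolar RNAs had medians of 0.08 and -0.20, with 0 past 1.5-fold.

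Between the lines, ribosomal protein mRNAs were lower in Huh7 than in HepG2 almost throughout. The median difference of Huh7 minus HepG2 was -0.84 with NC-siRNA and -0.77 with COP1-siRNA, or 1.79-fold and 1.71-fold lower. Over all genes read it was -0.37 and -0.35, and over the other genes with a mean of at least 100 TPM it was -0.05 and -0.07. With NC-siRNA 6 of 83 members were above 0, where 37.0% of all genes were, and with COP1-siRNA 4 of 83, where 36.9% were. Under median-of-ratios scaling 13 and 11 members were above 0, and 17 and 15 were above the median of all genes. At least 2-fold lower in Huh7 were 31 members with NC-siRNA (27.9% of all genes) and 32 with COP1-siRNA (26.0% of all genes). At least 2-fold higher in Huh7 was 1 member with each siRNA, RPS27L, beside 14.7% and 14.0% of all genes.

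The median of all genes depended on the scaling, moving from -0.37 to -0.14 with NC-siRNA when the libraries were scaled by the median of ratios. Relative to the median of all genes, 68 of 83 members lay below with either siRNA by TPM, and from 66 to 70 under the other scalings. Other abundant mRNAs also differed between the lines. ALB, the albumin mRNA, was at 8117 and 6683 TPM in Huh7 and at 1509 and 1598 TPM in HepG2, AFP at 7444, 6907, 370 and 399 TPM, and with mitochondrially encoded genes left out of the base the members summed to 125576 and 129915 TPM in Huh7. TPM gives shares of a total, so a lower level in Huh7 cannot be told apart from more of other mRNAs there, and RNA per cell was not measured.

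**Figure D3:**
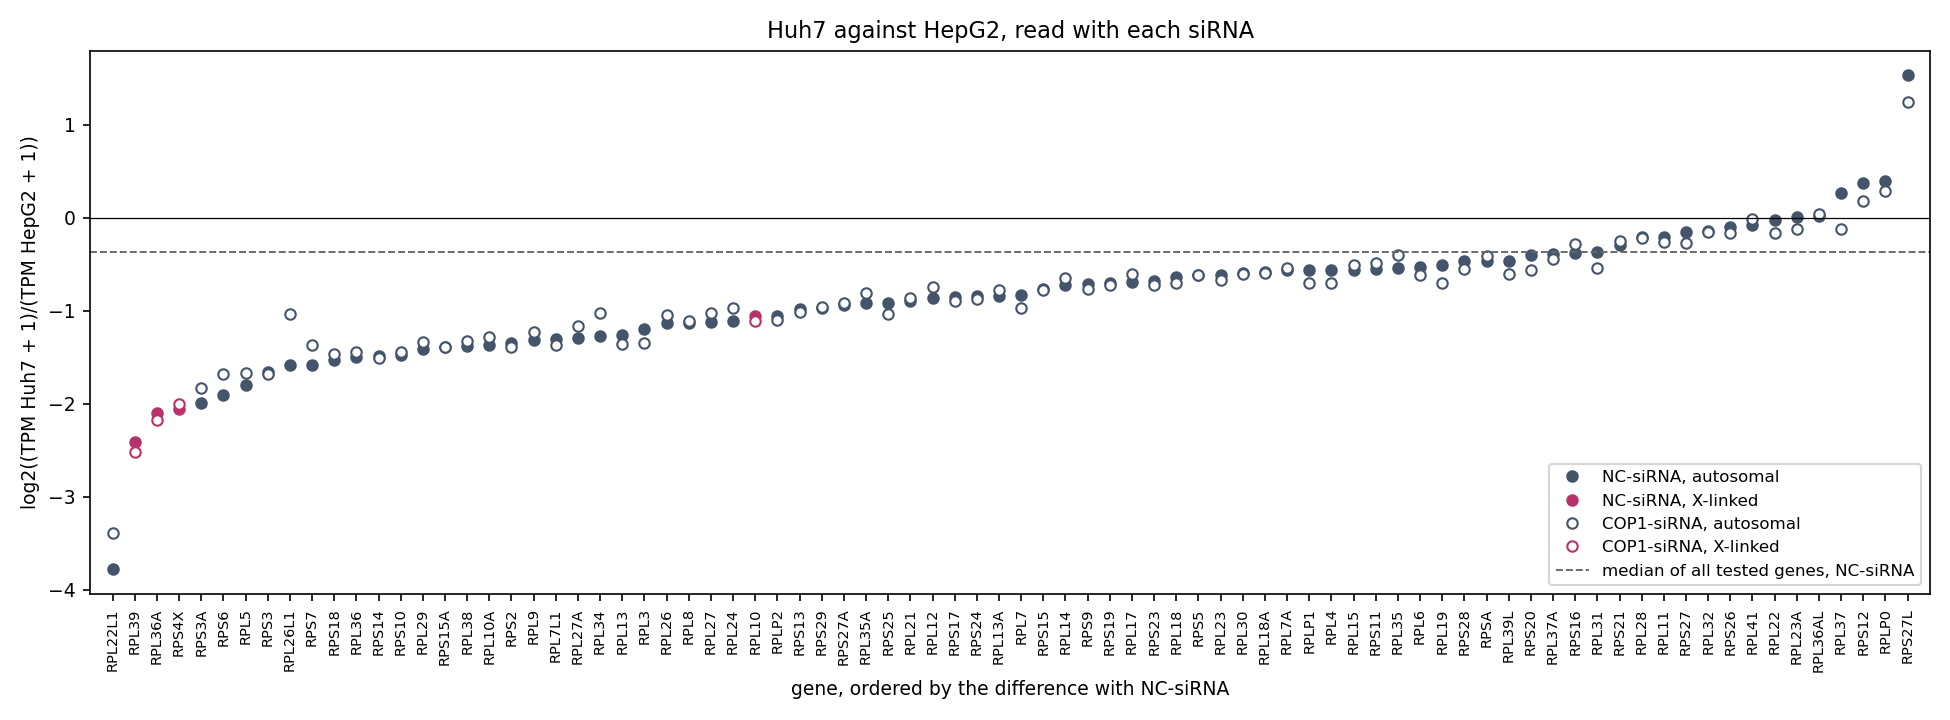
Log2 difference of Huh7 minus HepG2 on the log2(TPM + 1) scale for 82 of the 83 members, ordered by the value with NC-siRNA (filled circles) and with COP1-siRNA as open circles, X-linked genes in magenta; the dashed line is the median of all genes read with NC-siRNA, -0.37. Most members lie below the dashed line, from RPL22L1 at -3.77 to RPS27L at 1.53, and the filled and open circles run together.

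The order of the members was nearly the same with either siRNA. The 2 readings, which share no library, had a Pearson r of 0.985 and a Spearman rho of 0.979 over the 83 members. The sign was the same in 81, and the gap between the readings had a median of 0.07 and a maximum of 0.55, at RPL26L1. These values were not computed over all genes, so whether this likeness is particular to the members cannot be said. RPL39, a small basic protein lining the exit tunnel, was at 1181 and 1233 TPM in Huh7 and at 6275 and 7046 TPM in HepG2 (log2 -2.41 with NC-siRNA and -2.51 with COP1-siRNA). With each siRNA this was the most negative difference among the canonical genes. RPL36A was at 476 and 436 TPM in Huh7 and 2049 and 1965 TPM in HepG2 (log2 -2.10 and -2.17). RPS4X was at 1103 and 1150 TPM in Huh7 and 4584 and 4621 TPM in HepG2 (log2 -2.05 and -2.01). Each of these 3 genes is on the X chromosome.

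RPS3A was at 1444 and 1628 TPM in Huh7 and 5763 and 5775 TPM in HepG2 (log2 -2.00 and -1.83). RPS6 (-1.91 and -1.68), RPL5 (-1.79 and -1.67) and RPS3 (-1.65 and -1.68) followed. For all of these the 2 lines were well apart in both readings.

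A few members did not share the lower level. Those above 0 with both siRNAs were RPS27L, RPLP0, RPS12 and RPL36AL, and RPL37 and RPL23A were above 0 with NC-siRNA alone. RPLP0 was 0.40 higher in Huh7 on the log2 scale with NC-siRNA and 0.29 with COP1-siRNA, and RPS12 was 0.37 and 0.18 higher, at 2896 and 2734 TPM in Huh7 and 2242 and 2412 TPM in HepG2. RPL41 (-0.07 and -0.01), RPL22 (-0.02 and -0.16), RPL23A (0.004 and -0.12) and RPS26 (-0.10 and -0.17) were close to even by TPM, and scaling by the median of ratios put RPL41, RPL22 and RPS26 above 0. RPL37 read 0.27 and -0.12 by TPM and 0.30 and 0.20 by coverage. RPLP0 and its stalk partners thus stood apart from each other, since RPLP1 and RPLP2 had differences of -0.56 and -1.06 with NC-siRNA and of -0.70 and -1.10 with COP1-siRNA.

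The paralogs gave both ends of the range. RPL22L1, the counterpart of RPL22, was at 14.4 and 15.5 TPM in Huh7 and at 210 and 172 TPM in HepG2 (log2 -3.77 and -3.39), while RPL22 was at 422, 418, 428 and 468 TPM. RPL22L1 accordingly made up 3.31% and 3.57% of the pair's summed TPM in Huh7 and 32.9% and 26.8% in HepG2. RPS27L was at the other end, 1.53 and 1.2 higher in Huh7 on the log2 scale, and its share beside RPS27 was 1.13% and 0.820% in Huh7 and 0.335% and 0.271% in HepG2. RPL36AL was even between the lines (0.02 and 0.04) while its parent RPL36A was not, so its share was 40.3% and 42.7% in Huh7 and 13.4% and 13.8% in HepG2. RPL39L, described in testis and tumors, was at 29.9 and 25.1 TPM in Huh7 and 41.6 and 38.8 TPM in HepG2, or 2.47%, 2.0%, 0.658% and 0.547% of its pair. RPL7L1 (-1.30 and -1.37) and RPL26L1 (-1.59 and -1.03) were lower in Huh7, as were RPL7 (-0.83 and -0.97) and RPL26 (-1.14 and -1.05), with shares of 5.98%, 4.60%, 8.19% and 6.02% and of 4.04%, 6.32%, 5.49% and 6.29%. Because a paralog can share reads with its parent, these shares depend on how such reads were assigned.

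**Figure D4:**
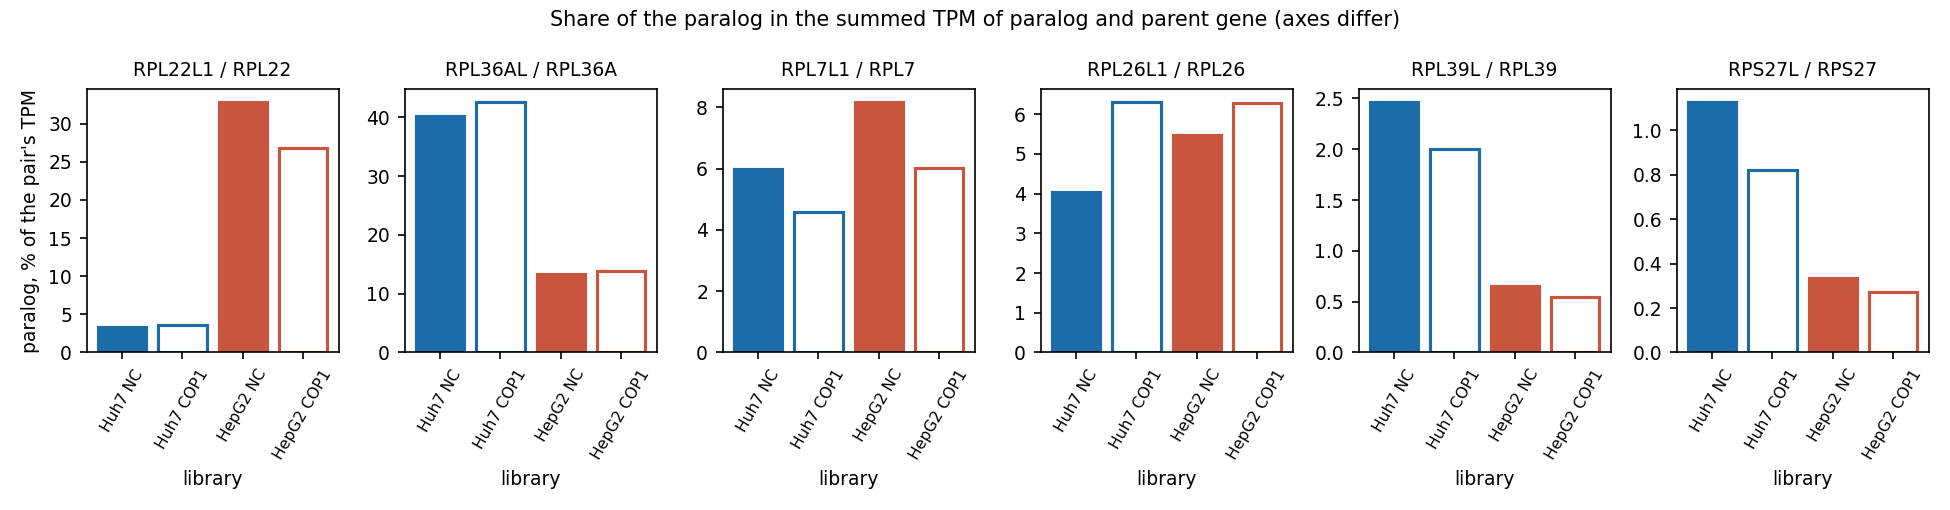
Percent of the summed TPM of paralog and parent gene that the paralog held in each of the 4 libraries (bars from 0, each panel with its own axis; Huh7 blue, HepG2 red, COP1-siRNA open). RPL22L1 held 3.31% in Huh7 and 32.9% in HepG2 with NC-siRNA, and RPL36AL held 40.3% and 13.4%, the opposite order.

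The line difference was set beside the other genes of each chromosome, since both lines are tumor lines and copy number was not measured in these data. The median of the members lay below that of the other genes on 20 of 21 chromosomes with NC-siRNA, the exception being chromosome 1, and on 19 of 21 with COP1-siRNA, the exceptions being chromosomes 1 and 14. Only 15 of these chromosomes held at least 3 members. Beside other genes with a mean of at least 100 TPM, chromosome 1 had -0.203 against -0.198 with NC-siRNA. With COP1-siRNA, chromosome 1 had -0.270 against -0.259 by that comparison, and chromosome 14 had -0.461 against -0.231. On the X chromosome, the 4 members RPL10, RPL36A, RPL39 and RPS4X had a median of -2.08 and the 510 other genes of -1.14 with NC-siRNA, so the other genes of that chromosome also read low in Huh7. RPL10 was the least low of the 4, at -1.06. On chromosome 12, the 4 members RPL6, RPL41, RPLP0 and RPS26 had a median of -0.09 beside -0.04 for the 779 other genes. Chromosome 19, with 12 members the richest, had -0.63 beside -0.18, and chromosome 4, with RPL9, RPL34 and RPS3A, had -1.31 beside -0.40. The part of gene dosage in the difference was not tested.

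**Figure D5:**
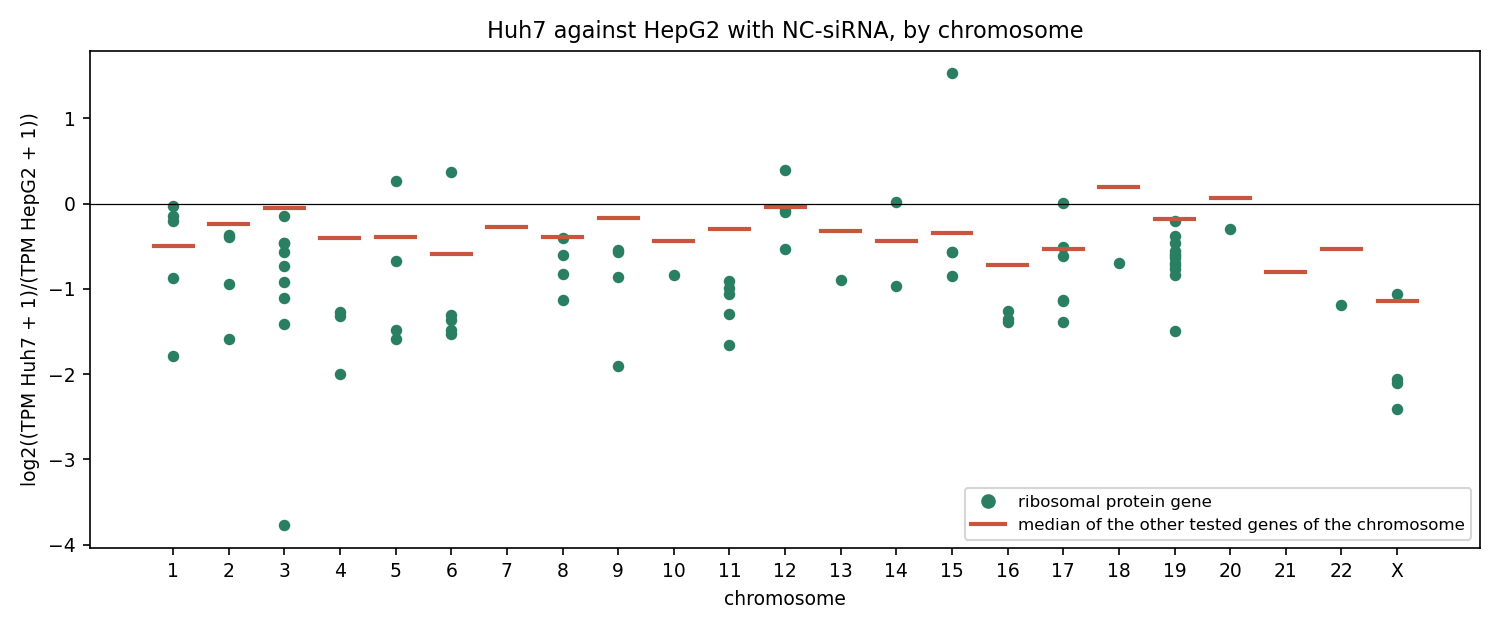
Log2 difference of Huh7 minus HepG2 with NC-siRNA, on the log2(TPM + 1) scale, for each member by chromosome (green circles) beside the median of the other genes read on that chromosome (orange bars). On most chromosomes the bar lies above most circles, and the X chromosome has both the lowest bar, at -1.14, and 3 members below -2.

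Members with a pyrimidine run of at least 8 bases wholly or partly in the window around the start and those without both read lower in Huh7. The medians were -0.84 (n = 53) and -1.08 (n = 14) with NC-siRNA and -0.78 and -0.998 with COP1-siRNA. A run need not begin at the start to be counted, so this split does not separate genes with a TOP tract from those without. Their medians in the siRNA comparison were 0.02 and 0.04 in Huh7 and -0.005 and -0.01 in HepG2.

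The medians of the further lists were also below 0 in Huh7 minus HepG2. Of the 18 other TOP genes 17 were below 0 with either siRNA, with medians of -0.59 and -0.72, and 3 and 5 were at least 2-fold lower, where 27.9% and 26.0% of all genes were at least 2-fold lower and 37.0% and 36.9% were above 0. At least 2-fold lower with NC-siRNA, 3 of 18 is thus a smaller share than that of all genes. With COP1-siRNA, 5 of 18 is close to the share of all genes. EEF1A1, the elongation factor that brings aminoacyl-tRNA to the ribosome, was an even one at 5636 and 6076 TPM in Huh7 and 5944 and 6292 TPM in HepG2. The 27 ribosome biogenesis genes had medians of -0.72 and -0.81, with 9 and 10 at least 2-fold lower, a share not far from the same background, and GNL3, which encodes nucleostemin, was at 42.0 and 38.7 TPM in Huh7 and 639 and 552 TPM in HepG2 (log2 -3.90 and -3.80). EIF6, which keeps the subunits apart, had the largest positive difference of that list (0.82 and 0.36). The 9 hosts of small nucleolar RNAs had medians of -1.76 and -1.02, with 5 of 9 at least 2-fold lower in each reading against the same background, GAS5 among them at 66.9 and 71.8 TPM in Huh7 and 349 and 279 TPM in HepG2. RACK1 differed by -0.72 and -0.84.

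Read-through transcripts that hold a member were listed apart for 3 genes. RPL17-C18orf32 was at 20.3 and 17.3 TPM in Huh7 and 55.7 and 25.6 TPM in HepG2, RPL36A-HNRNPH2 at 1.65, 2.14, 22.0 and 43.5 TPM, and RPS10-NUDT3 at 3.69, 3.60, 14.5 and 14.3 TPM. All were far below RPL17, RPL36A and RPS10 themselves.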

How the data were processed

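One table per library was deposited, with TPM, FPKM and coverage for each gene. Per the submitters' processing notes, the authors used FastQC 0.11.7, Trimmomatic 0.38, HISAT2 2.1.0 and StringTie 2.1.3b with GRCh38. The deposited TPM, which sums to 1000000 in each library, was the measure used, and the deposited FPKM and the deposited coverage signal served as alternatives. No counts were given, so a count test could not be run, and with 1 library per group no test was run.

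TPM was summed per gene number (49 to 51 numbers per table were repeated, no member among them), symbols came from RefSeq (GRCh38.p14), and a pseudocount of 1 was added before log2. Python 3.11.15, numpy 2.4.6, pandas 2.3.3 and matplotlib 3.10.9 were used. Counting at 2-fold was tried on simulated data with larger changes put in, which does not bear on the 1.5-fold and smaller thresholds. Named were 32 members: the 5 highest and lowest by mean TPM, the 5 at each end of each of the 4 contrasts, paralogs with parents, RPLP0, RPLP1, RPLP2, RPSA and any past 1.5-fold. RPL5, RPL10, RPL11, RPL14, RPL23A, RPL28, RPS3, RPS6, RPS28 and the pseudogenes, read-through and chromosome examples were added after their values were seen, as were the pairs of TPM and coverage. Members and lists were chosen with earlier results of these data known. Other scalings, minimums, fold thresholds and member sets were tried. Values of 1 member and 1 listed gene are not reported here, and the counts, sums and medians include them.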

Additional observations from a re-analysis of the deposited data

Results flagged for a closer look

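RPL37, a large subunit protein that binds 5.8S ribosomal RNA, drew attention because its difference between COP1-siRNA and NC-siRNA went one way in Huh7 (log2 -0.20) and the other way in HepG2 (log2 0.19), each beyond 1.1-fold. The difference between the lines was not tested, since each group is 1 library. By scaled coverage the values were -0.05 and 0.05.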

How the results depend on the processing

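With 1 library per group, no replicate could be left out, and depth is unknown. No value read as past a threshold changed direction, and the HepG2 median with COP1-siRNA, 0.003, changed sign as given above. Of 144 values for the whole group, 130 stayed within the limits set (a count within 1.5 times, a median within 0.1, a sum within 10%). The other 14 were as follows. Without paralogs, 0 members were 1.5-fold higher in Huh7 with COP1-siRNA, and 0 were 2-fold higher in Huh7 than in HepG2 with either siRNA. At a 2-fold threshold, 0 were higher in Huh7 with COP1-siRNA (83 of all 13000 genes). At a looser threshold of 0.32 (log2), 2 were lower in Huh7 (1335 of 13000 genes) and 1 in HepG2 (1267 of 14456 genes). At 1.5-fold, 54 and 59 were lower in Huh7 than in HepG2 with NC-siRNA and COP1-siRNA (6285 of 15055 and 6150 of 15126 genes). Median-of-ratios scaling put the medians between the lines at -0.58 and -0.53 and left 21 at least 2-fold lower with COP1-siRNA, and upper-quartile scaling put that median at -0.66. Without mitochondrially encoded genes in the base, the sums in Huh7 were 125576 and 129915 TPM, beside 111206 and 111973 TPM with them. Adding pseudogenes, chosen after seeing the data, was among the settings that moved none. Of 640 values for single named genes, 627 stayed on the same side of the threshold and 13, for RPL24, RPL26, RPL26L1, RPL27A, RPL34 and RPLP2 between the lines, came under 2-fold under these scalings. The labels carry no replicate numbers, so no fit with a replicate block was made.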
